A study of Mus musculus with 4 samples.

Results

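Granzymes, perforin and serglycin are the main cargo of the cytotoxic granule of CD8 T cells, and their genes were examined as a set of 10: Gzma, Gzmb, Gzmc, Gzmd, Gzme, Gzmf, Gzmk, Gzmm, Prf1 and Srgn. They are taken by gene name, and all 10 were found among the 24312 genes of the table. Poly(A) RNA was sequenced from P14 CD8 T cells on a C57BL/6 background, which carry a transgenic receptor for the gp33 peptide of lymphocytic choriomeningitis virus. In the BATF group (2 libraries) the cells were transduced with the MIG retrovirus (MSCV-IRES-GFP) carrying BATF, an AP-1 family transcription factor, and in the MIG group (2 libraries) with the same vector without BATF. Cells of both groups saw gp33 at 100 ng/ml for 1 day before and 1 day after transduction, grew for 2 days in IL-2 at 10 ng/ml, were sorted as CD8+ GFP+ and were kept for 2 more days in IL-2 at 1 ng/ml. The retroviral promoter sets the level of the transgene. No source used here names the species of the BATF sequence or says whether the 2 libraries of a group came from separate mice.

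Cytotoxic T cells kill by releasing these granules onto a target cell. Perforin, the product of Prf1, opens pores in the target membrane, and granzymes, which are serine proteases, enter through them and cleave proteins inside the target. Serglycin, the product of Srgn, is the proteoglycan whose negatively charged sugar chains hold granzymes and perforin inside the granule. In the mouse, granzyme genes lie at separate places in the genome: Gzma and Gzmk neighbour each other on chromosome 13, Gzmm lies on chromosome 10, where Prf1 and Srgn also lie, and 7 genes form a row on chromosome 14 in the order Gzme, Gzmd, Gzmg, Gzmn, Gzmf, Gzmc, Gzmb. Gzmg and Gzmn complete that row and are given beside the 10 genes.

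The copies on chromosome 14 resemble each other, which bears on how fragments can be assigned to them. Between the longest coding transcripts of GENCODE M21, Gzmd and Gzme were 90% identical and shared 110 exact windows of 50 bases. Across the 12 granzyme, perforin and serglycin transcripts, 21.7% of the 50-base windows of Gzmd, 20.6% of those of Gzme, 7.36% of those of Gzmf and 4.14% of those of Gzmc occurred in another of them. For Gzmg and Gzmn the shares were 19.8% and 5.74%. Gzmb, Gzma, Gzmk, Gzmm, Prf1 and Srgn shared 0 such windows with the others. No source used here gives the read length. The fragment values of all 10 genes were whole numbers in every library, while 987 genes of the table carried a fractional value.

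The upstream sequences of 3 genes show how far the chromosome 14 copies differ ahead of their start sites: that of Gzmb, the abundant gene of the row, that of Gzmc, the other measurable one, and that of Gzmd, a near-silent one. They are the 250 bases before the start site in RefSeq (GRCm38.p6, all on the minus strand, 5′ to 3′): chr14:56262335-56262584 for Gzmb, chr14:56234658-56234907 for Gzmc and chr14:56132594-56132843 for Gzmd. Capitals mark a match to the AP-1 motif TGANTCA, which pairs of BATF and JUN proteins can bind, or to the related cyclic AMP response element TGACGTCA.
Gzmb: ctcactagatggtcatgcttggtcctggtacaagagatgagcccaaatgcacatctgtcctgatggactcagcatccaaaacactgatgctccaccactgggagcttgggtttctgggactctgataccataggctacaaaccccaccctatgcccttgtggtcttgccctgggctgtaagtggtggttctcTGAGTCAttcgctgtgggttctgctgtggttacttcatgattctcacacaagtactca
Gzmc: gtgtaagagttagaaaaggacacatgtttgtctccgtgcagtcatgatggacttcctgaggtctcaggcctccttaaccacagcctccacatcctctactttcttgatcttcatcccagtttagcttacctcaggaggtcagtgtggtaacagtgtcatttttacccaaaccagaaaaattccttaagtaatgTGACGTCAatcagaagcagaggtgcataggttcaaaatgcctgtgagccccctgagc
Gzmd: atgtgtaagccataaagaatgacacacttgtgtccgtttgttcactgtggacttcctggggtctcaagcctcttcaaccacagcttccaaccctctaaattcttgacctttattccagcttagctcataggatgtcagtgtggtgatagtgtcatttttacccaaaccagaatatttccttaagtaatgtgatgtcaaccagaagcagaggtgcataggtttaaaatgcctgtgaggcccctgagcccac

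The window of Gzmb held 1 AP-1 match, TGAGTCA at positions -58 to -52, and 6.75% of all 32851 windows of that length held such a match on either strand. Gzmc held the cyclic AMP response element at -57 to -50, and so did the windows of Gzmf and Gzmg, near-copies that are 70.2% to 82.2% identical among these 3 genes; 1.55% of all windows held it. Since the motifs were picked with these sequences in view, the shares only describe how common the letters are. Those of Gzmd, Gzme, Gzmn, Gzma, Gzmk, Gzmm, Prf1 and Srgn held neither motif. The upstream bases of Gzmd and Gzme were 94.8% identical and those of Gzmc and Gzmd 80.5%, whereas those of Gzmb were 44.1% to 49.3% identical to the other 6 in a gapped alignment. A motif match describes the letters in these windows and is not a measured binding site.

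The BATF libraries held 19004726 and 21835968 fragments and the MIG libraries 24795714 and 20354623. FPKM is the deposited level, scaled to transcript length and library depth. The level of Batf itself may include fragments of the vector's copy. Batf stood at 1858 and 1314 FPKM in the BATF libraries, against 51.5 and 36.4 FPKM in the MIG libraries. It was 36.3-fold higher in BATF (log2 fold change 5.18 ± 0.24 SE, edgeR adjusted p = 0.00188). All 10 defining CD8 T cell markers that were found were expressed in every library, and their summed level was 4480 and 4970 CPM (fragment counts scaled to a common library size) in BATF and 5420 and 5380 CPM in MIG, with 10 of 10 log2 fold changes negative and 0 past the threshold. Cd8a had 423 and 599 CPM in BATF and 659 and 750 CPM in MIG. Defining markers of other cells were low: Ncr1 of NK cells, which also express granzymes, had at most 0.105 CPM in any library and Cd4 at most 0.791 CPM. In summed CPM, the NK list (6 of 6 found) had 7.17 and 2.99 in BATF and 2.61 and 2.33 in MIG, mostly from Ncam1. The mast cell and basophil list (6 of 6) had 0.949 and 1.65 CPM in BATF and 1.06 and 1.02 CPM in MIG. The myeloid and dendritic list (8 of 8) had 211 and 155 CPM in BATF and 261 and 208 CPM in MIG, mostly from Ly6c2 and Itgax, which activated CD8 T cells express too. The B cell list (5 of 5) had 13.1 and 11.9 CPM in BATF and 18.0 and 14.4 CPM in MIG, mostly from Cd79b, and the CD4 and regulatory T cell list (4 of 4) had 47.7 and 37.4 CPM in BATF and 27.0 and 20.9 CPM in MIG, mostly from Zbtb7b. The part of these cells in the results was not tested. In bulk RNA, fewer cells with a transcript and less of it per cell cannot be told apart.

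Gzma and Gzmb made up nearly all granzyme mRNA in these cells, and perforin mRNA was scarce beside it. Gzmb ranked 15th of all genes by mean FPKM in BATF cells and 58th in MIG cells. Gzma ranked 59th in BATF and 64th in MIG, and Srgn 199th in BATF and 218th in MIG. Prf1 ranked 7955th in BATF and 8097th in MIG, and within each library the level of Gzmb was 482 and 769 times that of Prf1 in BATF, and 441 and 458 times in MIG. Together the 10 genes took 0.488% and 0.636% of all fragments in BATF, against 0.375% and 0.456% in MIG.

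**Figure D1:**
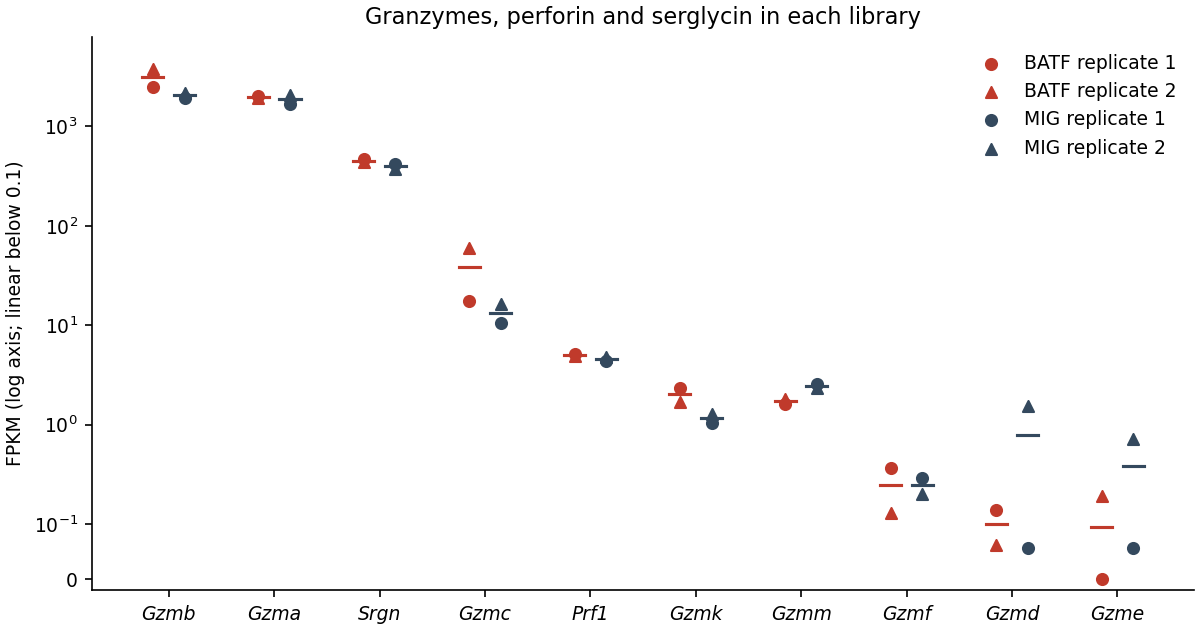
Level of each of the 10 genes in FPKM (log axis, linear below 0.1) in the BATF libraries (red, left) and MIG libraries (dark, right); circles are replicate 1, triangles replicate 2 and bars group means. Gzmb, Gzma and Srgn lie at 375 to 3805 FPKM, Gzmc at 10.5 to 59.8 FPKM, and Gzmd and Gzme reach 1.53 and 0.714 FPKM in MIG replicate 2 but at most 0.189 FPKM in the other libraries.

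Granzyme B cleaves caspases and their substrates in target cells. Gzmb stood at 2495 and 3805 FPKM in the BATF libraries, against 1930.4 and 2177 FPKM in the MIG libraries. Both BATF libraries lay above both MIG libraries, and the gap between the BATF libraries was wider than that between the BATF library with less Gzmb and the MIG library with more. By edgeR's quasi-likelihood test on the fragment counts, the log2 fold change was 0.62 ± 0.19 (SE), which is 1.53-fold, with a 95% interval of 0.17 to 1.06 that is not corrected for the number of genes. Its unadjusted p was 0.0134, and the Benjamini-Hochberg adjusted p over 13008 genes was 0.245 in edgeR. Without BATF replicate 2 the log2 fold change was 0.30, and without BATF replicate 1 it was 0.88. Leaving out MIG replicate 2 gave 0.73 and leaving out MIG replicate 1 gave 0.51. Such a fit takes the spread of the lone library from the other group, so only the sizes are given.

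Granzyme C, encoded next to Gzmb on chromosome 14, had the widest log2 gap between the BATF libraries among the 7 tested genes. Gzmc stood at 17.4 and 59.8 FPKM in BATF, against 10.5 and 16.3 FPKM in MIG. BATF replicate 2 was far above the other 3 libraries, and BATF replicate 1 was just above the higher MIG library. The log2 fold change was 1.53 ± 0.53 (SE), with a 95% interval of 0.27 to 2.79 and an edgeR adjusted p of 0.325 (unadjusted p = 0.0239). It was 0.39 without BATF replicate 2, 2.15 without BATF replicate 1, 1.23 without MIG replicate 1 and 1.90 without MIG replicate 2. Between the BATF libraries Gzmc differed by 1.72 on the log2(CPM + 0.5) scale, a gap wider than that of 99.9% of 9361 genes (those averaging 5 CPM or more). For Gzmb that gap was 0.585, wider than in 97.7% of these genes, while the median gene differed by 0.0931. Both genes were higher in BATF replicate 2 than in BATF replicate 1. Batf had 934 CPM in BATF replicate 2 and 1342 CPM in BATF replicate 1. The order was the same in the MIG libraries, which were transduced without BATF. There Batf had 36.1 CPM in replicate 1 and 26.5 CPM in replicate 2, Gzmb 2340 and 2741 CPM, and Gzmc 7.68 and 12.4 CPM. The part of the Batf level in these gaps was not tested.

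Because the row on chromosome 14 holds near-copies, its 7 genes were also summed to 1 feature before the fit. The sum was 59387 and 102763 fragments in BATF and 57481 and 56767 in MIG, of which Gzmb alone was 99.6% and 99.1% in BATF and 99.7% and 99.5% in MIG. Its log2 fold change was 0.62 ± 0.19 (SE), with a 95% interval of 0.17 to 1.07 and an edgeR adjusted p of 0.246. The summed value thus had the size of that of Gzmb alone.

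The other genes of that row were near-silent, apart from 1 MIG library. Gzmd had 2 and 1 fragments in BATF and 1 and 24 in MIG, Gzme 0 and 3 in BATF and 1 and 11 in MIG, and the non-member Gzmg 1 and 2 in BATF and 2 and 9 in MIG. All 3 were highest in MIG replicate 2. There Gzmd made 1.18 CPM of the library total (exact 95% binomial interval 0.755 to 1.75, counting error only), against 0.0403 (0.00102 to 0.225) in MIG replicate 1. For Gzme the values were 0.540 (0.270 to 0.967) in MIG replicate 2 and 0.0403 (0.00102 to 0.225) in MIG replicate 1, and its 0 in BATF replicate 1 allows up to 0.158 CPM, taken as 3 fragments of the library total. Gzmf had 5 and 2 fragments in BATF and 5 and 3 in MIG. Gzmn had 0 and 2 in BATF and 0 and 0 in MIG, where the 0 values allow, by the same limit of 3 fragments, up to 0.158 CPM in BATF replicate 1 and 0.121 and 0.147 CPM in MIG. These levels are too low for a test of the groups, and the shared windows given above leave the split between Gzmd, Gzme and Gzmg uncertain.

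Granzyme A, a tryptase that differs from granzyme B in the residues it cuts after, was the other abundant granzyme. Gzma stood at 2004 and 1926 FPKM in BATF, against 1683 and 2075.5 FPKM in MIG. The BATF libraries lay between the MIG libraries. Its log2 fold change was 0.07 ± 0.12 (SE), with a 95% interval of -0.23 to 0.36, or 0.854-fold to 1.28-fold (edgeR adjusted p = 0.947), and it turned to -0.10 without MIG replicate 1. In MIG the ranges of Gzmb and Gzma overlapped, and in BATF every value of Gzmb was above every value of Gzma. The ratio of Gzmb to Gzma in FPKM was 1.25 and 1.98 in BATF, against 1.15 and 1.05 in MIG. As shares of all granzyme FPKM, Gzmb took 55.2% and 65.7% in BATF and 53.2% and 50.9% in MIG, and Gzma took 44.3% and 33.2% in BATF and 46.4% and 48.5% in MIG. With 2 libraries against 2, an exact permutation test of such a ratio cannot give a p below 0.333, so none was run.

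**Figure D2:**
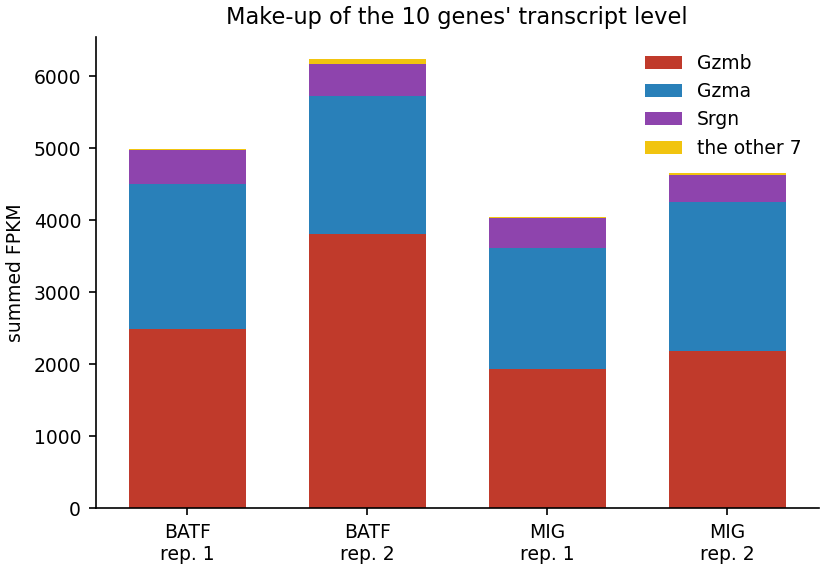
Summed FPKM of the 10 genes in each library, stacked by gene (Gzmb, Gzma, Srgn and the other 7). The total is 4996 and 6237 FPKM in BATF, against 4051 and 4655 FPKM in MIG, and the Gzmb part is largest in BATF replicate 2 at 3805 FPKM.

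The remaining granzymes were low. Granzyme K, another tryptase, is encoded next to Gzma, and Gzmk stood at 2.34 and 1.69 FPKM in BATF (27 and 22 fragments), against 1.04 and 1.27 FPKM in MIG (15 and 16 fragments). Its groups did not overlap, and its log2 fold change of 0.80 ± 0.38 (SE) had a 95% interval of -0.11 to 1.73 (edgeR adjusted p = 0.549). Granzyme M, an enzyme best known from NK cells, was the 1 tested gene of the set with a negative log2 fold change. Gzmm stood at 1.61 and 1.81 FPKM in BATF (34 and 43 fragments), against 2.57 and 2.33 FPKM in MIG (68 and 54 fragments). Again the groups did not overlap, and the log2 fold change was -0.52 ± 0.25 (SE), with a 95% interval of -1.11 to 0.08 (edgeR adjusted p = 0.563). Gzmm was above Gzmk in both MIG libraries, and in BATF the 2 genes' ranges overlapped.

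Perforin and serglycin did not pass the test either. Prf1 stood at 5.17 and 4.95 FPKM in BATF, against 4.37 and 4.75 FPKM in MIG. Both BATF values lay just above the higher MIG value. The log2 fold change was 0.15 ± 0.15 (SE), and its 95% interval ran from -0.21 to 0.52, so that a fold beyond 1.44 lay outside it (edgeR adjusted p = 0.876). Srgn stood at 471 and 437 FPKM in BATF, against 419 and 375 FPKM in MIG, with no overlap. Its log2 fold change was 0.20 ± 0.09 (SE), with a 95% interval of -0.01 to 0.41 (edgeR adjusted p = 0.498).

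Across the set, 7 of the 10 genes passed the filter on low counts and 0 of the 7 passed the test, against 1.09% of all 13008 genes tested (142 genes). At an unadjusted p under 0.05 edgeR had 2 of the 7, Gzmb and Gzmc, against 10.8% of all genes. After adjustment DESeq2 called 1 of the 7 (Gzmb), and it also called more genes than edgeR over all genes (count given below). With limma-voom 0 of the 7 passed, and its count over all genes is not given here. In 6 of the 7 the groups did not overlap, 5 higher and 1 lower in BATF, and 38.7% of all tested genes had groups that did not overlap. The median log2 fold change of the 7 was 0.20, beside -0.01 over all genes tested.

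**Figure D3:**
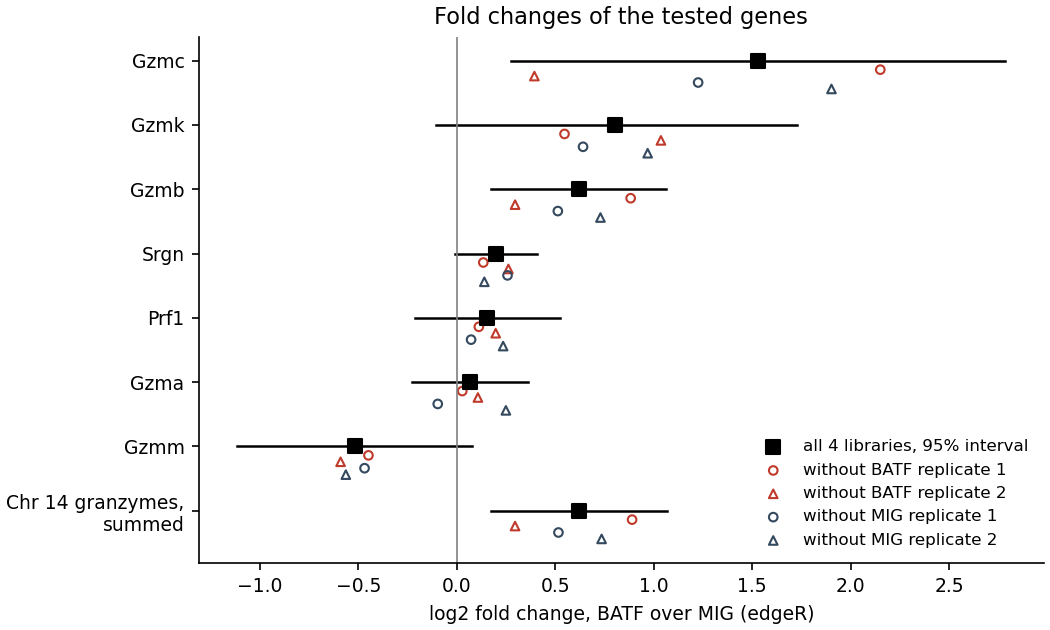
Log2 fold change of BATF over MIG (edgeR) for the 7 tested genes and for the summed chromosome 14 granzymes; squares and lines are the values with all 4 libraries and their 95% intervals, open marks the values with 1 library left out. For Gzmb the values with 1 library left out run from 0.30 to 0.88 and for Gzmc from 0.39 to 2.15, the lowest of each without BATF replicate 2.

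Of the 5 genes of the set with at least 5 CPM, Gzmb and Gzmc were highest in BATF replicate 2 and lowest in MIG replicate 1. Gzma, Prf1 and Srgn stayed between -0.22 and 0.16 around their own means, with Gzma and Prf1 differing by a root mean square of 0.0766 on the centred log2(CPM + 0.5) scale. Gzmb and Gzmc shared the order of the libraries but not the size of the gaps, at a difference of 0.545. Seen from Gzmc, Gzmb was the 45th nearest of 9360 genes. Seen from Gzmb, Gzmc was the 8858th, behind Prf1 (0.325), Srgn (0.341) and Gzma (0.352). Among genes outside the set, the 5 nearest to Gzmb were Blcap (0.0266), Bcr (0.0447), a GTPase-activating protein, Errfi1 (0.0510), an inhibitor of the EGF receptor, Tiam1 (0.0530), an exchange factor for RAC, and Id2 (0.0714), an inhibitor of E-proteins that is known for its part in effector CD8 T cells. Id2 had 198 and 278 CPM in BATF, against 152 and 187 CPM in MIG (edgeR adjusted p = 0.337). With 4 libraries such likeness is a description only.

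**Figure D4:**
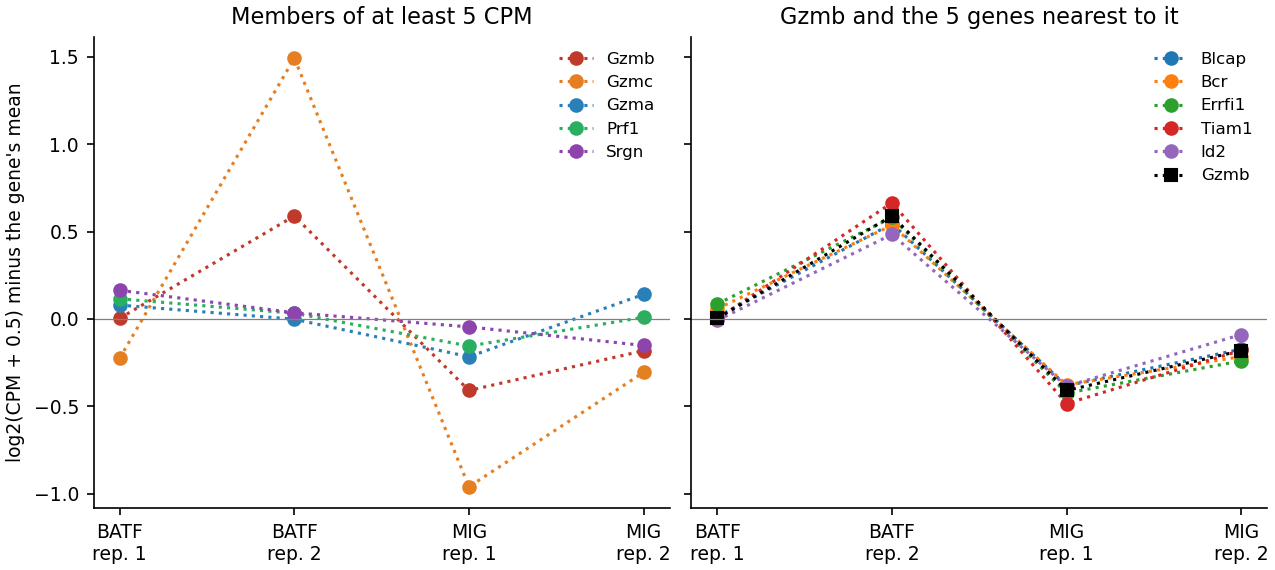
Level in each library as log2(CPM + 0.5) minus the gene's own mean, for the 5 genes of at least 5 CPM (left) and for Gzmb with the 5 genes nearest to it (right). Gzmc and Gzmb peak in BATF replicate 2, where Gzma, Prf1 and Srgn do not.

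Other parts of the granule machinery were read from lists of genes. The background was the share of all tested genes that edgeR called higher, 0.884%, and lower, 0.208%. The lists were chosen with earlier results of these data known, so their counts beside that share are a description only. Of 17 tested granule proteases, inhibitors and membrane proteins, 2 rose and 0 fell, with a median log2 fold change of 0.03. Both were Ctla2 genes, which encode inhibitors of cysteine cathepsins. Ctla2a had 270.2 and 259 CPM in BATF, against 132 and 138 CPM in MIG (log2 fold change 0.97, edgeR adjusted p = 0.00803). Ctla2b had 59.9 and 62.4 CPM in BATF, against 25.3 and 26.2 CPM in MIG (1.25, edgeR adjusted p = 0.00671). Since Ctla2a and Ctla2b are close copies, fragments may have been split between them.

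For granule transport and release, 2 of 31 tested genes rose and 0 fell, with a median of 0.01. Stx11, a membrane fusion protein whose loss in people causes a defect of cytotoxic granule release, had 28.6 and 27.2 CPM in BATF, against 16.0 and 16.8 CPM in MIG (log2 fold change 0.77, edgeR adjusted p = 0.0416). Sytl2, a partner of RAB27A at the plasma membrane, had 96.2 and 101.1 CPM in BATF, against 65.5 and 64.2 CPM in MIG (0.60, edgeR adjusted p = 0.0263). With 1 library left out, the log2 fold change was 0.73 to 0.80 for Stx11 and 0.57 to 0.64 for Sytl2. Such a fit takes the spread of the lone library from the other group, so only the sizes are given for these genes. Neither gene passed with limma on filtered FPKM, as given below. The list's count of calls changed with each library left out, while the count over all genes rose.

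Serglycin works through its sugar chains, and of 22 tested genes of proteoglycan chain synthesis 1 rose and 0 fell, with a median of 0.04. Csgalnact1, which starts chondroitin sulfate chains, had 3.37 and 4.46 CPM in BATF, against 0.572 and 0.680 CPM in MIG (log2 fold change 2.64 ± 0.31 SE, edgeR adjusted p = 0.0205). With each library left out in turn, its log2 fold change was 2.43 to 2.83. It did not pass with limma on unfiltered log2(FPKM + 1), where the value was 0.79 (limma adjusted p = 0.221). Csgalnact1 had 0.876 and 1.16 FPKM in BATF and 0.153 and 0.175 FPKM in MIG, so adding 1 narrows its fold change. The list's count of calls rose without MIG replicate 2, in a fit that also called more genes over all genes.

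Among 24 transcription factors known for granule genes, 4 rose and 0 fell, with a median of 0.15. Among them is Batf, the transduced gene itself, and without it 3 of 23 rose and 0 fell, with a median of 0.14, a count added after the values were seen. Beside Batf these were Prdm1, the gene of BLIMP-1 (38.7 and 31.3 CPM in BATF, against 15.9 and 11.5 CPM in MIG), Rbpj of the Notch pathway (401 and 414 CPM in BATF, against 219 and 253 CPM in MIG) and Hif1a, the oxygen-regulated factor (392 and 356 CPM in BATF, against 261 and 259 CPM in MIG). Their log2 fold changes were 1.35 for Prdm1, 0.79 for Rbpj and 0.52 for Hif1a, with edgeR adjusted p of 0.0279, 0.0212 and 0.0460. With limma on filtered log2(FPKM + 1) none of these 3 passed (limma adjusted p = 0.0736 for Prdm1, 0.0504 for Rbpj and 0.101 for Hif1a). With 1 library left out, the log2 fold change of Hif1a in edgeR was 0.45 to 0.59. The list's count of calls rose with any library left out, and so did the count over all genes. Of 12 tested genes of IL-2 receptor signalling, 1 rose and 0 fell, with a median of -0.08. Il2ra, the alpha chain of the receptor through which the cultures were fed, had 694 and 586 CPM in BATF, against 294 and 299 CPM in MIG (log2 fold change 1.11, edgeR adjusted p = 0.00932). That list's count of calls rose without MIG replicate 2, where the count over all genes rose too.

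**Figure D5:**
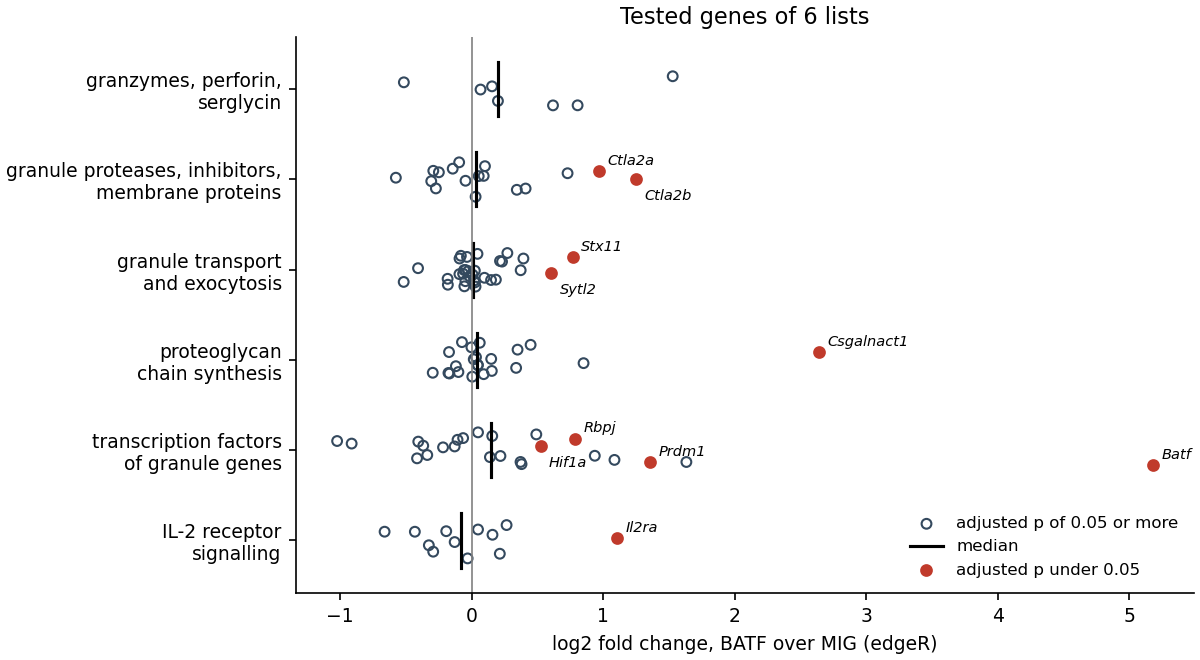
Log2 fold change of BATF over MIG (edgeR) for the tested genes of 6 lists; filled red points passed an adjusted p of 0.05, open points did not, and black bars are medians. The named genes that passed all lie to the right of 0, and 0 of the 7 tested granzyme, perforin and serglycin genes are filled.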

How the data were processed

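The submitters' processing notes name TopHat2 2.1.1, Cufflinks 2.2.2, Cuffdiff and the build mm9. No source used here gives the annotation, strandedness or read length. The authors' deposited table gives, per the file headers, estimated counts (fragments assigned to each gene by the authors' Cuffdiff run, 97.6% of them whole to 0 decimals) and FPKM (scaled by the authors per library and divided by transcript length). It numbers replicates 0 and 1, read here as 1 and 2, so the numbers only name libraries. Within each group the libraries differed beyond sampling noise (chi-square per gene 9.49 in BATF and 17.7 in MIG). The p-values reflect only this spread between libraries, which edgeR draws for each gene toward that of other genes. Part of the spread may be technical.

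Estimated counts were rounded, filtered with filterByExpr (minimum count 10) and fitted with edgeR 4.0.16 under R 4.3.3 (TMM factors 0.988 to 1.01, glmQLFit and glmQLFTest, BATF over MIG, no covariate), with Benjamini-Hochberg adjustment over 13008 genes and a threshold of 0.05. CPM are TMM-scaled. The SE was taken from the coefficient (no shrinkage) and the root of its F value, and 95% intervals use edgeR's degrees of freedom. The biological coefficient of variation was 11.3%. The script was tested on simulated data.

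All 10 genes are named whatever their values, with Batf, Gzmg and Gzmn. From each further list every gene past the threshold is named, or, in a list with none, the 2 with the smallest p. The genes nearest to Gzmb are the 5 of at least 5 CPM with the smallest root mean square difference. In the marker lists, which had no calls, those 2 were Cd8b1 and Cd8a (log2 fold changes -0.29 and -0.46), Cd79b (-0.40) alone for B cells, Itgax and Ly6c2 (0.73 and -0.53), Zbtb7b and Foxp3 (0.95 and -0.53), Ncam1 and Fcgr3 (1.48 and -0.10), and Ms4a2 and Cpa3 (0.70 and -0.06). The genes and lists were chosen with earlier results of these data known, and the motifs with the upstream sequences in view. Promoters came from RefSeq (GRCm38.p6; 10 of 10 genes matched, the first listed start site used for identities) and transcripts from GENCODE M21, both of another build than mm9, and were joined by symbol. Alternatives were DESeq2 1.42.0, limma 3.58.1, other scalings and filters, FPKM with pseudocounts of 1 and 0.1, leaving out each library, a block by replicate number, the summed copies, and totals without the 10 genes.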

Additional observations from a re-analysis of the deposited data

How the results depend on the processing

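Over all genes, edgeR's 142 calls became 349 with no filter on low counts, 364 with DESeq2, 36, 49 and 3 with limma on log2(FPKM + 1), log2(FPKM + 0.1) and unfiltered log2(FPKM + 1), and 248 to 589 with 1 library left out, a fit that takes the spread of the lone library from the other group. Of the 10 genes, 0 passed with edgeR, 1 (Gzmb) with no filter or with DESeq2, and 0 to 2 (Gzmb and Gzmc) with 1 library left out. The summed chromosome 14 granzymes passed with no filter (log2 fold change 0.63, edgeR adjusted p = 0.0435), with DESeq2 (0.62, adjusted p = 0.0171) and without MIG replicate 2 or BATF replicate 1, in a range of 0.30 to 0.89 with 1 library left out. With 1 library left out, Gzma ranged from -0.10 (without MIG replicate 1) to 0.25, Fcgr3 from -0.27 to 0.11 (without MIG replicate 1), and Cpa3 from -1.325 to 0.64 (without MIG replicate 2; 0.56 when BATF replicate 1 was left out). The cause of these turns was not tested. The direction of Gzmb, Gzmc, Gzmk, Gzmm, Prf1 and Srgn was the same in every alternative that gave a value, and other scalings changed no call among the 10 genes.

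Same-numbered libraries deviated together (r = 0.466 across 9361 genes), but no label pairs them. With the replicate number as a block (1 residual degree of freedom) edgeR called 1504 genes, 2 of the 10 genes (Gzmb and Gzmc) and the summed granzymes (log2 fold change 0.60, adjusted p = 4.47e-12). Of the 9 genes named as risen beside Batf, none passed with limma on unfiltered log2(FPKM + 1) (adjusted p 0.0525 to 0.265), and Stx11, Sytl2, Prdm1 and Hif1a passed with neither pseudocount on filtered FPKM. Fragment numbers are too low to test Gzmd, Gzme and Gzmf, and Gzmk and Gzmm rest on 15 to 68 fragments a library.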
